A study of Mus musculus with 23 samples.

Results

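The mouse DEAD and DEAH box helicase genes were followed through 6 lists of CTCF crosslink sites. The members were the protein-coding genes of the GENCODE mm10 annotation whose symbol starts with Ddx or Dhx and a number, 1 gene of the family left out. This gave 52 of 21938 protein-coding genes, with 36 Ddx and 16 Dhx genes on 17 chromosomes and gene bodies from 2.26 to 149 kb. A crosslink site was counted for a member when it lay inside the gene body on the strand of the gene.

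The sites came from iCLIP2, in which UV light links a protein to the RNA it touches, the protein is pulled down and the linked nucleotide is read from sequencing. All 23 libraries came from E14 mouse embryonic stem cells (ESCs) with a CTCF-AID2 degron, in which 1 µM 5-Ph-IAA removed the cell's own CTCF while 1 µg/mL doxycycline induced a Flag-Halo-tagged rescue CTCF, both for 24 h. The rescue was either full-length (WT) or the mutant of the first zinc finger (ΔZF1), and each rescue line was 1 clone, so that clone and mutation cannot be told apart. Cells were taken as ESCs or after 2 days of differentiation towards neural progenitor cells (NPCs), and living cells were exposed to UV at 400 mJ/cm2 (254 nm) before their nuclei were isolated for the Flag pull-down. The libraries without UV (noXL) came from cells with the WT rescue alone, and no noXL list of the ΔZF1 line enters the comparisons. NPC WT had 3 libraries, and each of the other 5 groups (WT, ΔZF1 and noXL of ESCs, ΔZF1 and noXL of NPCs) had 4. The libraries of each group had been merged before sites were called, which leaves 1 list per group and no spread between replicates. No difference below therefore has a replicate check, no p-value is given, and the 95% intervals cover counting error only and take each site as independent.

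The lists held 429119 sites inside genes (genic sites) for ESC WT, 217770 for ESC ΔZF1, 150821 for ESC noXL, 230147 for NPC WT, 153211 for NPC ΔZF1 and 102002 for NPC noXL. The number of sequencing reads behind them is unknown here. Among stem cell genes, ESC WT and NPC WT held 460 and 0 sites on Esrrb and 85 and 14 on Nanog. Of 6 neural progenitor genes, Nes had 2 sites in the ESC WT list against 28 for NPC WT, while Sox1, Pax6, Hes5, Zic1 and Pax3 had 0 in both WT lists. The endoderm and mesoderm genes Gata6, Sox17, T and Mixl1 had 0 sites in every list.

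DEAD and DEAH box proteins are named after the amino acids of a conserved ATP-binding motif. They use ATP to unwind short RNA duplexes or to strip proteins from RNA, and they act at almost every step of RNA metabolism, from splicing and ribosome assembly to translation, decay and the sensing of viral RNA. Their genes are for the most part expressed in all dividing cells, with a few restricted to the germline.

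The clearest recurrent positions are shown first. Of 3153 member sites in ESC WT, 54 had a site within 5 nt on the same strand in each of the other UV lists. Of these 54, 31 had no site that close in either noXL list, and 23 recurred in at least 1 noXL list. The base differed between the classes. Uridine, the base that UV links most readily, was the base at 74.2% of the 31 positions (23 sites, 95% Wilson interval 56.8 to 86.3%) and at 13.0% of the 23 (3 sites, 4.54 to 32.1%). The 13 positions that recurred in both noXL lists came from 4 genes and held 0 uridines, which allows a share of up to 22.8% if the positions are independent. Most positions of both classes lay in exons, 93.5% of the 31, which came from 10 genes, and 87.0% of the 23, which came from 7. Neighbouring nucleotides were counted as separate positions, so the positions are not independent and the intervals are too narrow.

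Below are the 8 positions of the UV-only class with the highest score percentiles, at most 2 per gene, as RNA of the gene's strand with 10 nt on either side in the mm10 reference. The capital letter is the base called as crosslinked in ESC WT.
Ddx39b coding exon, chr17:35243378-35243398, plus strand: uuccgagauuUucuacucaag
Dhx15 coding exon, chr5:52184893-52184913, minus strand: uuauuucuagGaaagaccggg
Ddx39b coding exon, chr17:35246939-35246959, plus strand: ggcaguguuuUuuggcggucu
Ddx42 5′ UTR, chr11:106216947-106216967, plus strand: cacccuacccCcagucagcaa
Ddx23 coding exon, chr15:98648718-98648738, minus strand: guccuccagaUugugaucgcc
Dhx30 coding exon, chr9:110084821-110084841, minus strand: gcugacauauUucauggccgu
Dhx15 coding exon, chr5:52150743-52150763, minus strand: cccucaauauUaugacaugag
Ddx6 coding exon, chr9:44614273-44614293, plus strand: ugggaauuuuUgaaaugggcu

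The first Ddx39b window ranked highest. Ddx39b encodes an RNA helicase of early spliceosome assembly and mRNA export, and its lowest score percentile over the 4 UV lists was 96.6. The Ddx6 window, in the gene of a helicase of translational repression and mRNA decay, had the lowest, at 36.9. Of the 8 capital letters, all but the G of the first Dhx15 window and the C of the Ddx42 window were U.

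For contrast, 2 of the 13 positions that recurred in both noXL lists, and so in all 6 lists, are shown. They are the highest by score percentile when each gene may be used only once.
Ddx39b 5′ UTR, chr17:35242667-35242687, plus strand: gaauagcggcAgccacaugau
Ddx6 3′ UTR, chr9:44639736-44639756, plus strand: gggaggggagGguacuguguc
In each UV list both ranked above all 8 windows of the UV-only class. Their score percentiles ran from 98.8 to 99.8 for Ddx39b and from 99.1 to 99.7 for Ddx6. A further Ddx39b position, 5428 nt from the start of the gene, is not shown. It was also called in all 6 lists, with score percentiles from 99.2 to 99.8. The highest-scoring sites of a member were thus in part the same with and without UV, and neither of the 2 bases shown was a uridine.

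**Figure D1:**
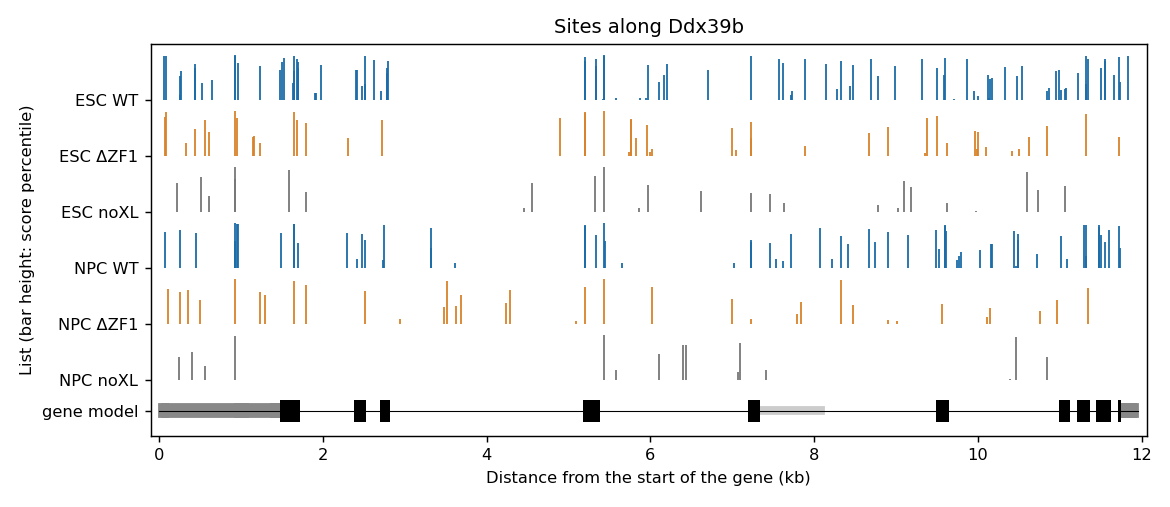
Sites along Ddx39b, plotted as distance from the start of the gene in kb, with 1 track per list. Bar height is the score percentile of the site within its list, and in the gene model black boxes are coding exons, dark grey boxes UTRs and light grey boxes non-coding exons; ESC WT held 101 sites, ESC ΔZF1 50, ESC noXL 26, NPC WT 75, NPC ΔZF1 35 and NPC noXL 15.

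The members carried 8675 sites over the 6 lists, and no site lay in 2 members. ESC WT held 3153 of them, ESC ΔZF1 1477, ESC noXL 1060, NPC WT 1571, NPC ΔZF1 852 and NPC noXL 562. As a share of genic sites these were 0.735% (95% Wilson interval 0.710 to 0.761%), 0.678% (0.645 to 0.714%) and 0.703% (0.662 to 0.746%) for the ESC lists in the same order. The NPC shares were 0.683% (0.650 to 0.717%) for WT, 0.556% (0.520 to 0.595%) for ΔZF1 and 0.551% (0.507 to 0.598%) for noXL. Within ESCs the WT share and the noXL share had overlapping intervals, whereas in NPCs the WT share lay above those of ΔZF1 and noXL.

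Most members had sites. In ESC WT 43 of 52 (82.7%) had at least 5, against 35.6% of all protein-coding genes, and in NPC WT 39 (75.0%) did, against 33.4%. Without UV the members were also more often hit than other genes, with 42 (80.8%) in ESC noXL against 27.8%. The number of sites grew with exon length (Spearman's rho 0.33 across the 52 genes in ESC WT, which are not independent replicates) and not with the length of the gene body (rho 0.02). A gene's sites depend on the amount of its RNA as well as on how much of that RNA was bound, and site lists alone cannot tell these apart.

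**Figure D2:**
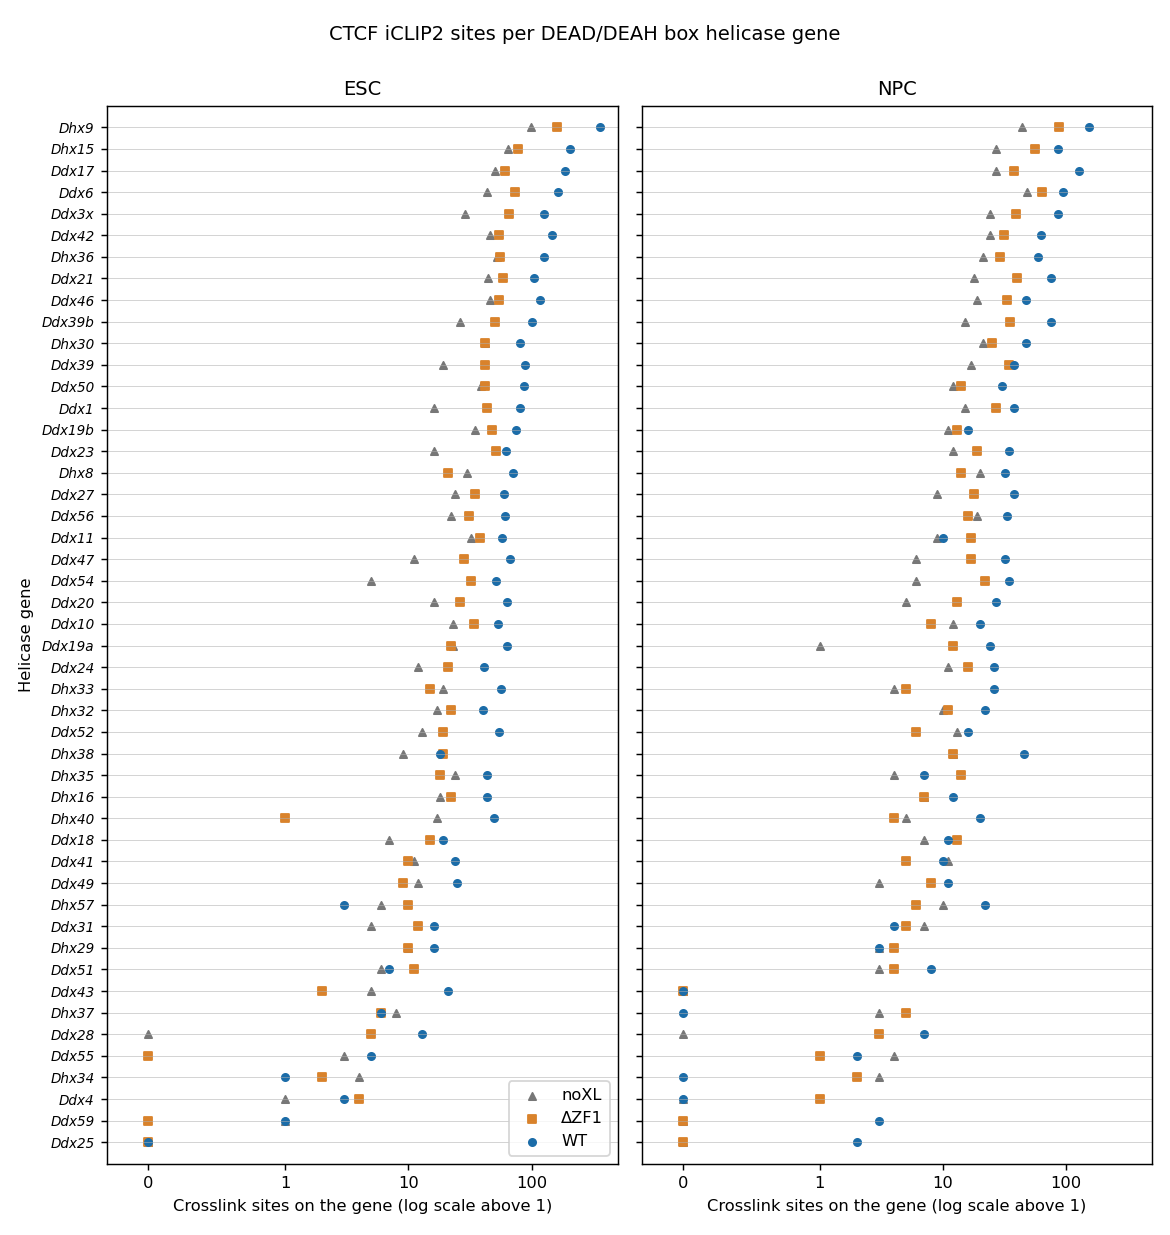
Number of crosslink sites on each of the 48 helicase genes with a site in any list, in ESCs (left) and NPCs (right), on an axis that is logarithmic above 1 and linear below. Circles are WT, squares ΔZF1 and triangles noXL; Dhx9 lies highest in the WT, ΔZF1 and ESC noXL lists, with 359 sites in ESC WT, and WT exceeds noXL for 43 of the 47 genes with a WT or noXL site in ESCs, against 82.8% of all such genes.

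Sites were concentrated in a few members. The 8 genes with most sites summed over the 6 lists held 44.8% of the member sites in ESC WT, 47.0% in NPC WT, 40.3% in ESC noXL and 41.5% in NPC noXL.

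Spliceosome and mRNA export helicases held the most sites of the role groups in total. In ESCs its 17 genes held 1662 sites with WT (median 70 per gene), 736 with ΔZF1 and 532 in noXL. In NPCs they held 795 (median 34), 423 and 256. Dhx9 (RNA helicase A), which unwinds double-stranded RNA in the nucleus, had 359, 160 and 99 sites in ESC WT, ΔZF1 and noXL and 152, 87 and 44 in the same NPC lists, the most of all members in every list but NPC noXL, where Ddx6 had 48. Dhx15, which takes spent spliceosomes apart, had 204, 78 and 64 sites in ESCs and 85, 56 and 27 in NPCs. Ddx17, which acts in splicing and microRNA processing, had 187, 61 and 50 in ESCs and 127, 38 and 27 in NPCs. In all 3 the counts ran in the order of the lengths of the lists, with WT highest and noXL lowest in both cell types. Ddx42, a helicase of the U2 snRNP, had 145, 54 and 46 sites in ESCs and 62, 31 and 24 in NPCs. At the other end of the group Ddx25, a testis helicase, had 2 sites in NPC WT and 0 in every other list.

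Translation and mRNA turnover helicases held 511 sites in ESC WT, over 7 genes with 0 to 162 each (median 81), and 279 in NPC WT (median 38), so that their medians were above those of the spliceosome and export genes. Ddx6 had 162, 73 and 43 sites in ESC WT, ΔZF1 and noXL and 94, 63 and 48 in NPCs. Ddx3x, the X-linked helicase of translation initiation, had 126, 66 and 29 in ESCs and 85, 39 and 24 in NPCs. Its Y-linked copy Ddx3y had 0 sites in all 6 lists. The copies are nearly identical in coding sequence, and reads that fit both may not have been placed, so the counts of this pair, and those of Ddx19a and Ddx19b, Ddx39 and Ddx39b, and Ddx21 and Ddx50, are uncertain to that extent. Dhx36, which resolves G-quadruplexes, had 125, 55 and 52 sites in ESCs and 59, 29 and 21 in NPCs, so that in ESCs its ΔZF1 and noXL counts were close.

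Ribosome biogenesis was the second most numerous role, with 16 genes, all with at least 5 sites in ESC WT (712 sites, median 52) and 13 of them with at least 5 in NPC WT (366 sites, median 23). Ddx21, a nucleolar helicase of ribosomal RNA processing, had 105, 58 and 44 sites in ESC WT, ΔZF1 and noXL and 75, 40 and 18 in NPCs. Ddx50, its neighbour on chromosome 10, had 86, 42 and 39 in ESCs and 30, 14 and 12 in NPCs. These counts too ran in the order of the list lengths, and scaled to genic sites the log2 ratios of ESC WT to noXL were -0.27 for Ddx21 and -0.39 for Ddx50, against 0.83 and 0.08 in NPCs.

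The remaining groups were small. The mitochondrial helicases Dhx30 and Ddx28 had 81 and 13 sites with ESC WT, against 47 and 7 with NPC WT. Ddx28, the shortest member, had 0 sites in either noXL list. With a floor of 3 sites in place of the 0, its scaled count was 1.52-fold higher in ESC WT than in ESC noXL. The NPC value on the same basis was 1.03-fold. Both leave out the counting error of the WT sites, so neither is a lower bound. Of the germline helicases, Ddx4 (Vasa) had 3, 4 and 1 sites in the ESC lists and 0, 1 and 0 in the NPC lists, and Ddx43 had 21, 2 and 5 in the ESC lists and 0 in all NPC lists. The 3 sensors of viral RNA, Ddx58 (RIG-I), Dhx58 (LGP2) and Ddx60, had 0 sites in all 6 lists.

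Per kb of sequence, member sites lay far more densely in exons than in introns. In ESC WT the density was 12.7 sites per kb of 5′ UTR, 10.4 per kb of coding exon, 5.96 per kb of 3′ UTR and 0.827 per kb of intron. NPC WT had 6.63, 6.25, 3.10 and 0.311 sites per kb in the same order. In both noXL lists the order was the same too, with 4.28, 3.59, 1.65 and 0.280 in ESC noXL and 2.43, 1.93, 0.657 and 0.157 in NPC noXL. The order of these 4 parts was thus the same with UV and without it in the WT line.

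**Figure D3:**
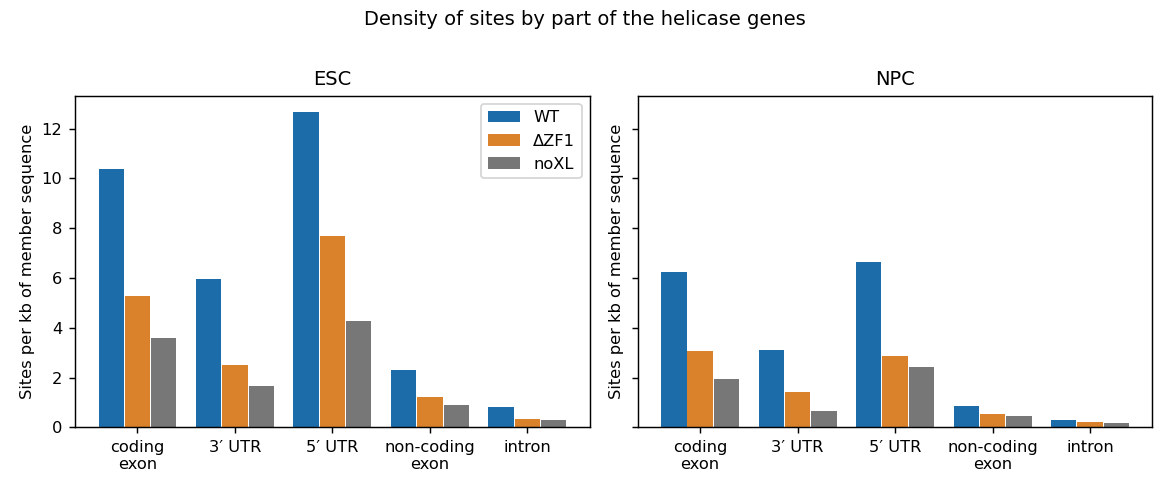
Sites per kb of sequence in each part of the 52 helicase genes, for WT, ΔZF1 and noXL in ESCs (left) and NPCs (right). Bars start at 0 and have no error bars because each group is 1 list; 5′ UTRs carry the most sites per kb, then coding exons, and introns the fewest, except that in NPC ΔZF1 coding exons (3.08) exceed 5′ UTRs (2.87).

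As shares of their sites, the members were richer in coding exon than all genic sites in every list. Genic sites include those in genes without coding exons, whereas all members are protein-coding. How much of the difference comes from this was not tested. Coding exons took 41.8% (95% Wilson interval 40.1 to 43.5%) of member sites in ESC WT against 36.3% of genic sites, 50.7% (48.2 to 53.1%) against 43.3% in NPC WT, and 43.1% (40.2 to 46.1%) against 33.8% in ESC noXL. Introns took 33.9% (32.2 to 35.5%) in ESC WT, 29.6% (27.3 to 32.0%) in ESC ΔZF1 and 34.1% (31.3 to 37.0%) in ESC noXL. In NPCs the intron share was lowest in WT, at 25.5% (23.4 to 27.7%), against 32.7% (29.7 to 36.0%) in ΔZF1 and 36.1% (32.3 to 40.2%) in noXL. All genic sites showed that NPC order as well, at 26.9, 39.6 and 42.6%. In ESCs their intron shares were 33.4% in WT, 31.9% in ΔZF1 and 40.2% in noXL, so that in ESC noXL, NPC ΔZF1 and NPC noXL the genic share lay above the interval of the members.

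Members differed widely in intron share. Among the 35 genes with at least 20 sites in ESC WT it ran from 0 to 62.1%, with a median of 24.4%. Dhx9 (62.1%), Dhx15 (61.8%), Ddx19a (60.3%) and Ddx42 (58.6%) had most of their sites in introns, and Ddx23, Ddx24, Dhx33, Ddx41 and Ddx49 had none there. Dhx9 alone weighed on the total: without it the intron share of ESC WT was 30.2% in place of 33.9%. The median intron site of ESC WT lay 418 nt from the nearest exon, and 19.0% lay within 100 nt of one, against 372 nt and 22.4% in ESC noXL. Sites on 3′ UTRs were frequent in Ddx17 and Ddx6, with 54 and 50 in ESC WT, and rare in Dhx9 and Dhx15, with 5 and 3.

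Per kb of exon, the 35 genes ran from 4.97 sites (Ddx24, a ribosome biogenesis helicase) to 18.6 (Ddx56, a nucleolar helicase) in ESC WT, with a median of 9.92. Ddx3x (17.1) and Ddx39b (16.4) followed Ddx56. Dhx9, first by number, had 14.2 exon sites per kb, and 223 of its 359 sites lay in introns.

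Some sites sat close together. The densest 100-nt windows of ESC WT held 8 sites each, in the 5′ UTR of Ddx54 (8 of its 51 sites, chr5:120613106-120613203) and in the 3′ UTR of Ddx6 (8 of 162, chr9:44639083-44639161). In Dhx9, by contrast, the densest window held 7 of 359 sites.

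The base under the site separated UV from noXL lists. Uridine was the base at 61.1% of member sites in ESC WT (95% Wilson interval 59.4 to 62.8%), 48.3% in ESC ΔZF1 (45.7 to 50.8%) and 30.5% in ESC noXL (27.8 to 33.3%). In NPCs it was 65.5% for WT (63.1 to 67.8%), 60.0% for ΔZF1 (56.6 to 63.2%) and 29.2% for noXL (25.6 to 33.1%). ESC ΔZF1 lay between WT and noXL with no overlap of intervals, whereas NPC ΔZF1 was close to NPC WT. The same was true of all genic sites, with 60.6, 49.2 and 28.3% in ESCs and 64.6, 59.0 and 27.9% in NPCs, so the members did not stand apart in this.

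Most members followed this order. Of 33 genes with at least 20 sites in ESC WT and 10 in ESC noXL, all 33 had the higher uridine share in WT, and in NPCs 21 of 22 did, against 98.9% of 3953 and 99.4% of 2703 genes at the same minimums. The WT interval lay wholly above the noXL interval in 13 of the 33 members in ESCs and 11 of the 22 in NPCs, against 52.4 and 57.2% of those genes. ESC WT also exceeded ESC ΔZF1 in 29 of 32 members (90.6%), and NPC WT exceeded NPC ΔZF1 in 18 of 25 (72.0%), against 81.7% of 4885 and 70.1% of 3309 genes. Shares were ranked among the 35 members with at least 20 sites in ESC WT and the 29 with as many in NPC WT. Ddx3x was highest in both, at 74.6% (66.4 to 81.4%) in ESC WT and 85.9% (76.9 to 91.7%) in NPC WT. Dhx32 was lowest of these in both, at 35.0% (22.1 to 50.5%) and 36.4% (19.7 to 57.0%). Members with fewer sites were not ranked.

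Uridine shares depended on the part of the gene. In ESC WT 73.9% of 3′ UTR sites (69.6 to 77.9%), 63.2% of intron sites (60.3 to 66.0%) and 58.8% of coding exon sites (56.1 to 61.4%) were at a uridine, against 32.6% of 5′ UTR sites (26.0 to 39.9%). The uridine content of the members' own sequence was 30.2% in 3′ UTRs, 31.3% in introns, 22.0% in coding exons and 20.8% in 5′ UTRs. In 5′ UTRs the ESC WT interval overlapped that of ESC noXL, 27.6% (17.8 to 40.2%), so that the part of the gene with the most sites per kb was the one in which UV and noXL sites were not distinguishable by their base.

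**Figure D4:**
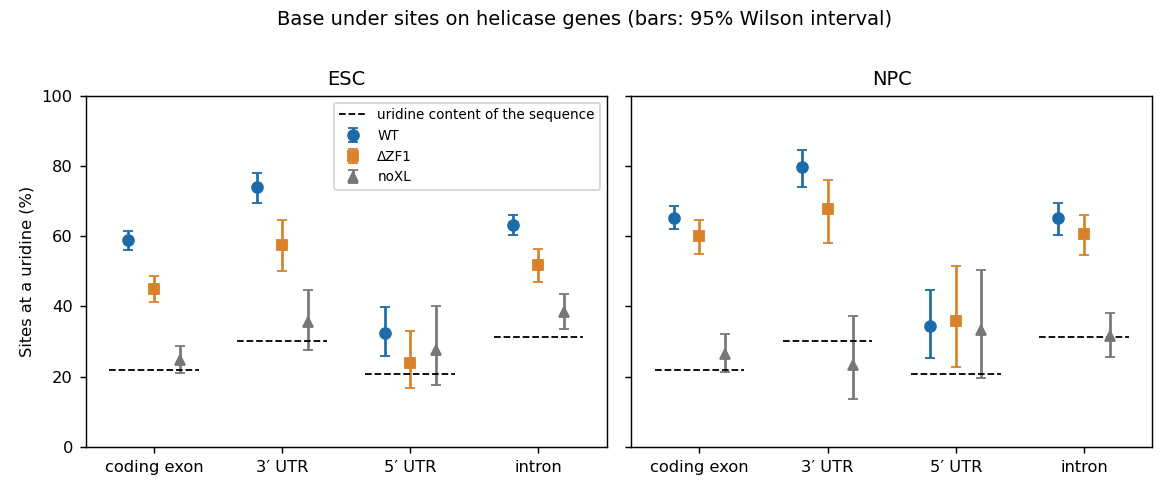
Share of member sites at a uridine (%) in coding exons, 3′ UTRs, 5′ UTRs and introns, in ESCs (left) and NPCs (right). Points are WT (circles), ΔZF1 (squares) and noXL (triangles) with 95% Wilson intervals, and dashed lines give the uridine content of the same parts of the genes; WT lies above noXL in every part, but in 5′ UTRs the intervals overlap.

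Scores ranked member sites much like other sites. The median member site stood at the 50.2 percentile of ESC WT, 48.0 for ΔZF1 and 48.5 for noXL of ESCs, 53.1 of NPC WT, 50.7 of NPC ΔZF1 and 48.5 of NPC noXL, where all genic sites had medians between 48.5 and 49.6. In ESC WT the member sites above the list's median score had more uridine (64.0%, 61.6 to 66.3%) than those below it (58.2%, 55.8 to 60.6%). In NPC noXL the values were 26.1% (21.2 to 31.6%) and 32.1% (27.0 to 37.6%), with overlapping intervals. NPC ΔZF1 also ran the other way from ESC WT, with 57.0% (52.3 to 61.6%) above the median score and 63.1% (58.3 to 67.6%) below it, again with overlapping intervals.

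Single positions recurred between lists more often than shifted positions did. A site of the other list within 5 nt was found for 14.4% (95% Wilson interval 13.2 to 15.7%) of the ESC WT member sites in ESC ΔZF1, 19.3% (17.97 to 20.73%) in NPC WT and 7.20% (6.35 to 8.15%) in ESC noXL. For all genic sites of ESC WT the shares were 15.1, 17.2 and 7.67%. After shifts of 500 and 1000 nt the shares of member sites were 2.75, 2.76 and 1.67%. Seen from NPC WT, 35.9% (33.6 to 38.3%) of member sites had a site in ESC WT, against 28.2% of all genic sites of NPC WT, and after the shifts 5.41% against 3.68%. The lists differ in length, so these shares are not comparable between lists. Sites were far denser in exons than in introns, and shifts of 500 and 1000 nt can move an exon site out of its exon. The shifted shares therefore cannot separate recurrence of single positions from lists that favour the same exons.

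For the comparisons of lists, a member's count in 1 list was set over its count in the other after adding 1 to each, on the log2 scale, and both were scaled to the genic sites of their list. Genes whose counts in the pair of lists summed to 20 or more were compared, and a scaled log2 ratio past 1 or -1 was taken as past the limit. A ratio of 0 then means that a gene kept its share of genic sites, not its number. Passing a limit is a matter of size and not of a test, and a gene with few sites passes it more easily.

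The first question was how the helicase genes fared when the first zinc finger was mutated. In ESCs the members held 1477 sites in ΔZF1 and 3153 in WT, 0.468 times as many, where all genic sites had 0.507 times as many. By number 41 of 47 members with a site had fewer in ΔZF1 and 5 had more, and 79.7% of 11225 genes with a site had fewer. The pooled scaled log2 ratio was -0.12 (95% interval -0.20 to -0.03), and with exon sites alone -0.06 (-0.16 to 0.05), an interval that includes 0. Of 39 members compared, 1 was past the limit upwards and 2 downwards, against 6.84% and 5.45% of 6518 genes. The members' median was -0.04 and that of all genes 0.04. Without scaling, 0 members lay above the limit and 21 below.

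Dhx38 (PRP16), which acts at the second step of splicing, was the member past the upper limit in ESCs. It had 18 sites in WT, 19 in ΔZF1 and 9 in noXL, a scaled log2 ratio of ΔZF1 to WT of 1.05 (0.14 to 1.97). It lay just beyond the limit, and fell short of it at 0.95 with exon sites alone, 0.99 without UV sites near noXL sites and 0.99 without chromosome 11. Dhx40 was lowest, with 49 sites in WT, 1 in ΔZF1 and 17 in noXL and a scaled log2 ratio of -3.67 (-7.16 to -2.11). Ddx43, with 21, 2 and 5 sites, had -1.90 (-4.36 to -0.47). In both of the latter the ΔZF1 list held fewer sites than the shorter noXL list, which came from the other line. Dhx40 lies on chromosome 11, which stood apart as a whole in the ΔZF1 lists. Within 100 kb of it on its strand, the gene included, ESC WT, ΔZF1 and noXL held 378, 69 and 118 sites. The same NPC lists held 161, 49 and 49 there. In ESCs the ΔZF1 list was thus below noXL in the region as well.

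NPCs held 852 member sites in ΔZF1 and 1571 in WT, 0.542 times as many against 0.666 for all genic sites. By number 39 of 47 members had fewer in ΔZF1 and 8 had more, and 73.2% of 11275 genes had fewer. The pooled scaled log2 ratio was -0.30 (-0.42 to -0.18), and the median over 34 members was -0.35 against -0.04 for all genes. Past the limits were 2 members upwards and 5 downwards, against 5.76% and 7.36% of 5274 genes, and unscaled 0 and 15. The pooled ratio was -0.17 (-0.31 to -0.02) with exon sites alone and -0.49 (-0.71 to -0.27) with intron sites alone, each scaled to genic sites of the same kind.

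Upwards in NPCs were Dhx35, a spliceosome helicase, with 7 sites in WT, 14 in ΔZF1 and 4 in noXL (scaled log2 ratio 1.49, 0.32 to 2.85), and Ddx11, a DNA helicase of sister chromatid cohesion, with 10, 17 and 9 (1.30, 0.25 to 2.45; 0.99 with exon sites alone). Downwards, Dhx33, of ribosome biogenesis, had 26, 5 and 4 sites (-1.58, -3.12 to -0.46). Dhx40 had 20, 4 and 5 (-1.48, -3.22 to -0.25). Dhx38, past the upper limit in ESCs, was past the lower one here with 45, 12 and 12 sites (-1.24, -2.22 to -0.42), but not with exon sites alone (-0.90) or with a score minimum of 3.02, the median score over the 6 lists (-0.54). Ddx17 rested on the largest numbers, with 127, 38 and 27 sites (-1.13, -1.67 to -0.63). Dhx57 had 22, 6 and 10 (-1.13, -2.55 to -0.03). Among these genes ΔZF1 was at or below noXL in number for Dhx40, Dhx38 and Dhx57.

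**Figure D5:**
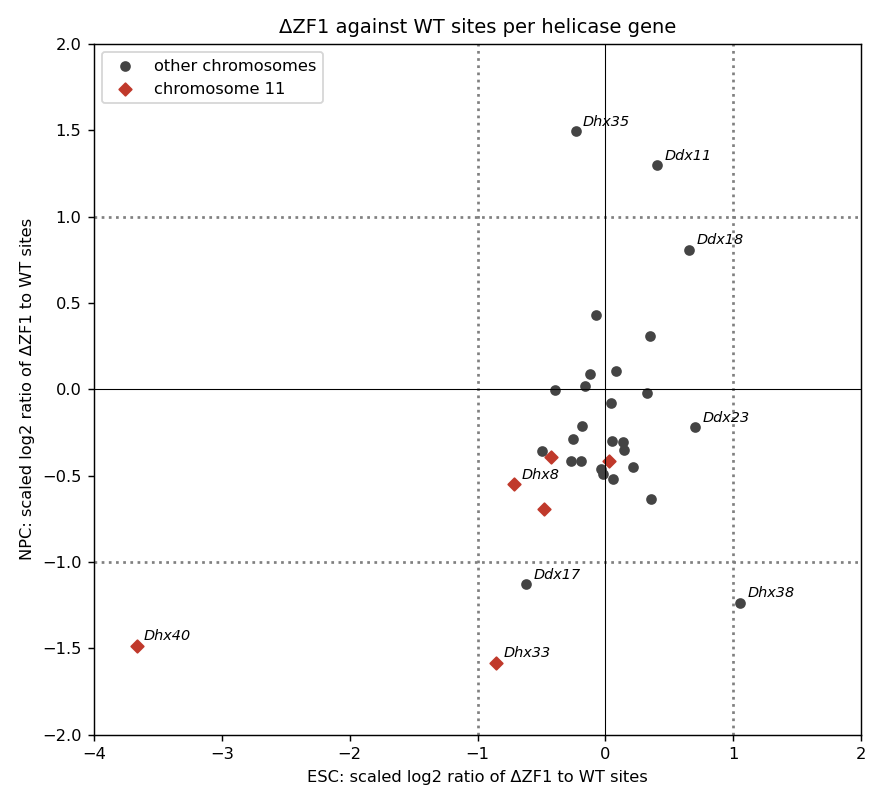
Scaled log2 ratio of ΔZF1 to WT sites in ESCs (horizontal axis) and NPCs (vertical axis) for the 33 helicase genes compared in both cell types, with dotted lines at the limits of 1 and -1. Diamonds mark genes on chromosome 11, which lie below 0 on the vertical axis and, with 1 exception, on the horizontal one; genes 0.7 or more from 0 on either axis are named, and Dhx38 is the only one past opposite limits, at 1.05 in ESCs and -1.24 in NPCs.

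By role, the ESC ratios of ΔZF1 to WT had medians of -0.19 over 16 spliceosome and export genes, 0.05 over 13 ribosome biogenesis genes and 0.06 over 5 translation and turnover genes. In NPCs they were -0.29 over 14, -0.41 over 11 and -0.20 over 4. Pooled over sites the spliceosome and export genes had -0.20 (-0.32 to -0.07) in ESCs and -0.32 (-0.49 to -0.15) in NPCs. Ribosome biogenesis genes had 0.03 (-0.16 to 0.21) and -0.30 (-0.55 to -0.05). Translation and turnover genes had -0.06 (-0.28 to 0.16) and -0.18 (-0.46 to 0.10). Of 33 members compared in both cell types 14 lay below 0 in both, 4 above 0 in both and 15 on opposite sides, where of 4781 genes 29.3, 28.3 and 42.4% did.

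The genes of chromosome 11 as a whole had a median scaled log2 ratio of ΔZF1 to WT of -0.47 in ESCs and -0.61 in NPCs. The 7 members there are Ddx56, Dhx33, Ddx52, Dhx40, Dhx58, Dhx8 and Ddx42, of which 6 were compared, with medians of -0.60 in ESCs and -0.62 in NPCs, against 0.04 and -0.29 for the members on other chromosomes. With chromosome 11 left out of members and genic sites, 0 members were past the upper limit and 1 past the lower in ESCs, and 2 and 3 in NPCs. Dhx40 in ESCs and Dhx33 and Dhx40 in NPCs are therefore low on a chromosome that was low as a whole, and the part of the chromosome in their ratios was not tested.

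The next question was how sites differed between cell types. This comparison uses the same WT lists as the one above, so the values are not independent of it. WT NPCs held 1571 member sites and WT ESCs 3153, 0.498 times as many against 0.536 for all genic sites, for a pooled scaled log2 ratio of NPC to ESC of -0.11 (-0.19 to -0.02). The interval included 0 without Dhx9 (-0.08, -0.17 to 0.01), with exon sites alone (-0.07, -0.17 to 0.03), with uridine sites (-0.10, -0.21 to 0.01) and with the same score minimum of 3.02 (-0.03, -0.16 to 0.10). Of 40 members compared 2 were past the limit upwards and 4 downwards, against 11.5% and 10.4% of 6730 genes. The members' median was -0.19 and that of all genes 0.04. Unscaled, 2 lay above and 24 below.

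Dhx57 had the highest ratio, with 22 NPC WT sites against 3 ESC WT sites (scaled log2 ratio 3.42, 2.12 to 5.42). Its noXL counts were 6 in ESCs and 10 in NPCs, and its ΔZF1 counts were 10 in ESCs and 6 in NPCs. The ESC WT count of 3 was thus below those of both shorter ESC lists, and the ΔZF1 counts ran the other way. Dhx38 had 18 and 45 (2.17, 1.44 to 3.00), and its noXL counts were 9 and 12, a scaled log2 ratio of 0.94. Ddx43, a germline helicase gene, had 21 and 0, which against a floor of 3 sites is 3.75-fold lower in NPC WT after scaling. That value leaves out the counting error of the 21 sites and is not a lower bound. Dhx35 had 43 and 7 sites (-1.56, -2.84 to -0.60, and -0.91 with the score minimum), Ddx11 57 and 10 (-1.50, -2.56 to -0.66) and Ddx19b, an mRNA export helicase of the nuclear pore, 75 and 16 (-1.26, -2.10 to -0.56). The noXL counts of these last 3 genes were lower in NPCs too, 24 and 4, 32 and 9, and 35 and 11 in ESCs and NPCs, with scaled log2 ratios of -1.76, -1.16 and -1.02. The difference in WT thus had the same direction and a similar size without UV.

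None of the 8 genes with most sites over all lists passed a limit between cell types, and their scaled log2 ratios of NPC to ESC ran from -0.35 (Dhx15) to 0.42 (Ddx21). Ribosome biogenesis genes had a median of -0.14 over 13 and none past a limit, while the spliceosome and export genes had -0.30 over 16, with Dhx38 above and Dhx35 and Ddx19b below.

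Lastly, WT was set against noXL, the background measured without crosslinking. By number 43 of 47 members had more sites in ESC WT than in ESC noXL and 40 of 46 in NPCs, against 82.8% of 11509 and 80.1% of 11474 genes. All genic sites were 2.85 and 2.26 times as many in WT as in noXL. Scaled, the ESC members had a pooled log2 ratio of WT to noXL of 0.06 (-0.04 to 0.16), an interval that includes 0, with a median of -0.08 against 0.02 for all genes. Only Ddx54, a ribosome biogenesis helicase with 51 sites in WT, 32 in ΔZF1 and 5 in noXL, was past the upper limit (1.61, 0.56 to 3.12), and 0 of 39 members were past the lower, against 8.12% and 6.60% of 6208 genes. Unscaled, 34 were above and 0 below. Intron sites alone gave a pooled ratio of 0.32 (0.15 to 0.50) and exon sites alone -0.09 (-0.21 to 0.04).

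In NPCs the pooled ratio of WT to noXL was 0.31 (0.17 to 0.45), with a median of 0.21 against 0.03 for all genes. Of 32 members compared 7 were past the limit upwards and 1 downwards, against 10.5% and 6.51% of 4765 genes, and unscaled 25 and 0. Ddx19a, an mRNA export helicase, had 24 sites in WT and 1 in noXL (2.47, 0.87 to 5.95). Dhx33 had 26 and 4 (1.26, 0.07 to 2.98), and Ddx54 34 and 6 (1.15, 0.11 to 2.54). The other 4 were Ddx39b with 75 and 15 (1.07), the ribosome biogenesis gene Ddx47 with 32 and 6 (1.06), Ddx20 (Gemin3), of snRNP assembly, with 27 and 5 (1.05) and Ddx17 with 127 and 27 (1.02). Ddx41, a splicing helicase, was lowest with 10 sites in WT and 11 in noXL (-1.30, -2.51 to -0.11). Ddx54 was thus past the upper limit over noXL in both cell types. Several of these NPC ratios fell short of the limit in other settings. With exon sites alone they were 0.76 for Ddx54, 0.80 for Dhx33, 0.67 for Ddx47 and 0.28 for Ddx20, and with uridine sites 0.89 for Ddx39b and -0.38 for Ddx47. With intron sites alone Ddx39b had 0.84 and Ddx17 0.78, and without UV sites near noXL sites Ddx20 had 0.97 and Ddx17 0.99. Ddx17 also had 0.99 when scaled by the median gene, and Ddx39b 0.96 without sites that lie in another gene as well. A number of Ddx19a near 0 in NPC noXL was not seen in ESC noXL, where it had 23 sites.

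Pooled over members the scaled log2 ratio of ΔZF1 to noXL was -0.05 (-0.17 to 0.06) in ESCs and 0.01 (-0.14 to 0.17) in NPCs, and both intervals include 0. These ratios set the ΔZF1 line against noXL libraries of the WT line.

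Beside the members, 14 other RNA helicase genes without a Ddx or Dhx symbol were counted, among them Snrnp200, Upf1 and Eif4a1. The split went by gene symbol and not by protein family. They held 513 sites in ESC WT, with a median of 19.5 per gene against 52 in the Ddx and Dhx genes, and 345 in NPC WT. Their pooled scaled log2 ratio of ΔZF1 to WT was 0.23 (0.02 to 0.43) in ESCs and -0.07 (-0.31 to 0.18) in NPCs, where the members had -0.12 and -0.30. The intervals of the groups were separate in ESCs and overlapped in NPCs. Within the other genes, Eif4a1 and Eif4a3 had ESC ratios of -0.44 and -0.52, and the rest of those compared lay above 0. Eif4a2 had 0 sites in ESC WT and ESC ΔZF1 but 15 in ESC noXL, and 44, 22 and 14 in the NPC lists. Within 100 kb of it on its strand both ESC UV lists held 0 sites against 17 in ESC noXL, so whether these lists hold all sites of that region is not settled, and its 0 is not read as a level. Without it, an alternative chosen after seeing the data, the 13 other genes had a median of 28 in ESC WT and an NPC ratio of -0.02 (-0.28 to 0.23), and their ESC ratio stayed at 0.23.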

How the data were processed

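Crosslink sites of CTCF iCLIP2 libraries were taken from 6 lists that the authors deposited, 1 per group. Reads had been trimmed with Flexbar, aligned to mm10 with STAR and freed of PCR duplicates by UMI-tools (versions are not given in the sources used here), and the libraries of a group were then merged for calling of single nucleotides by PureCLIP. The deposited value is the PureCLIP score, which is not scaled to depth and reached a ceiling of 708, so scores served only to rank sites within a list. The selection of peaks seen in several replicates was not repeated.

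Gene models were those of GENCODE release M21 (1-based). A site in several parts of a gene took the earliest of coding exon, 3′ UTR, 5′ UTR, other exon and intron, and its base was read from the mm10 reference on the strand of the site. Log2 ratios used a pseudocount of 1, genic sites for scaling, a minimum of 20 sites and limits of 1 and -1. Their intervals were derived from the binomial share that 1 list had of a gene's sites, without the pseudocount. Sharing used 5 nt, and the floor for a count of 0 was 3 sites. With 1 list per group no test was made. Calculations ran in Python 3.11.15 with pandas 2.3.3, scipy 1.17.1 and pysam 0.24.0 and were tested on simulated data. Alternatives changed scaling, score minimum, base, gene part, overlap, merging, site minimum and pseudocount. Named genes were the 8 with most sites over the 6 lists, members past a limit and members without sites, with further examples per role and at the ends of ranges chosen after their values were seen. The members, role lists and rules were chosen with earlier results of these data known. One gene of the family is not reported here, and no protein sequence was used.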

Additional observations from a re-analysis of the deposited data

Results flagged for a closer look

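Dhx38, the gene of a helicase that acts at the second step of splicing, was past opposite limits in ESCs and NPCs. Its scaled log2 ratio of ΔZF1 to WT sites was 1.05 in ESCs (18 sites in WT, 19 in ΔZF1) and -1.24 in NPCs (45 sites in WT, 12 in ΔZF1). The ΔZF1 counts of 19 and 12 were closer to each other than the WT counts of 18 and 45 were. Under alternatives the ESC ratio fell short of the limit at 0.95 with exon sites alone, 0.99 without UV sites near noXL sites, 0.99 without chromosome 11 and 0.07 without scaling, and the gene had too few sites to be compared with the score minimum, with uridine sites, with intron sites or with a minimum of 50. The NPC ratio fell short at -0.54 with the score minimum and -0.90 with exon sites alone. With 1 list per group this difference between ESCs and NPCs was not tested.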

How the results depend on the processing

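Of 167 values computed under alternatives, 121 stayed within the spread allowed by counting, or within 1.5 times for counts, 46 moved and 0 changed sign past their interval. Without scaling, the pooled log2 ratios were -1.09 (ESC ΔZF1 to WT), -0.88 (NPC ΔZF1 to WT), -1.01 (WT NPC to ESC), 1.57 (ESC WT to noXL) and 1.48 (NPC WT to noXL), with 21, 15, 26, 34 and 25 members past a limit. Intron sites alone gave -0.24, -0.49, -0.20, 0.32 and 0.47 in the same order, and exon sites alone moved NPC ΔZF1 to WT to -0.17 and ESC WT to noXL to -0.087, on the other side of 0 from 0.06 with an interval that includes 0. The number of members past a limit also moved as follows. For ESC ΔZF1 to WT it was 1 with a score minimum of 3.02, 5 with a minimum of 10 sites, 1 with a minimum of 50 and 1 without chromosome 11, an alternative chosen after seeing the data. For NPC ΔZF1 to WT it was 2 with the score minimum, 2 with uridine sites, 4 with exon sites, 2 with intron sites and 2 with a minimum of 50. For ESC WT to noXL it was 2 with the score minimum, 5 with uridine sites, 3 with intron sites, 4 with a minimum of 10 and 2 with a pseudocount of 0.5. For NPC WT to noXL it was 5 with the score minimum, 2 with uridine sites, 0 with intron sites (8 members compared), 5 without UV sites near noXL sites and 2 with a minimum of 50. The score minimum moved the uridine share to 63.9% (ESC WT), 68.8% (NPC WT) and 25.5% (NPC noXL), and the intron share to 28.5% (ESC WT), 19.8% (NPC WT) and 26.7% (ESC ΔZF1). Without Dhx9 the intron share was 30.2% for WT, 25.6% for ΔZF1 and 31.0% for noXL in ESCs and 22.3% for NPC WT. Fewer sites or genes enter under the minimums and single gene parts, and the cause of the other moves was not tested.

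No paired analysis was possible because PureCLIP had been run on merged libraries, and for the same reason no replicate was left out. The lists differ in length and the number of reads behind them is unknown.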

Other observations

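On the strand opposite to the helicase genes the lists held between 1 and 4 sites inside member bodies, 4 in ESC WT against 3 in ESC noXL and 3 in NPC WT against 1 in NPC noXL. Among the other RNA helicase genes, Eif4a1, of translation initiation, had 79, 29 and 26 sites in the ESC lists and 39, 17 and 14 in the NPC lists. Mov10, a helicase of mRNA decay, had 35, 34 and 22 sites in ESC WT, ΔZF1 and noXL and 1, 0 and 1 in NPCs. These genes were named after their values were seen.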
